A study of Mus musculus with 4 samples.

Results

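The genes described here are 7 receptors and 1 enzyme through which microglia sense and clear extracellular nucleotides and their products, or close relatives of such receptors: P2ry12, P2ry13, P2ry6, P2rx4, P2rx7, Entpd1, Adora3 and Gpr34. They were chosen by name, with earlier results of these data known, as 8 of the 19737 genes of the deposited single-cell count matrix. All 8 had UMIs (unique molecular identifiers, which count captured RNA molecules), and all 8 passed the filter on low counts that left 14058 genes for testing. Their totals ran from 54065 UMIs for P2rx7 to 1332165 UMIs for P2ry12.

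Damaged or active cells release ATP, which ectonucleotidases on the cell surface cut step by step to ADP, AMP and adenosine, so that a neighbouring microglial cell meets a changing mixture of ligands. P2Y receptors are G-protein-coupled, P2X receptors are ion channels opened by ATP, and adenosine has receptors of its own. In the brain P2ry12 is known as a marker of resting microglia and as the receptor that steers their processes toward injury, and its level is known to fall when microglia are activated.

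Single-cell RNA was measured in brain microglia of 20 mice, 4 in each of 5 groups, 24 hours after a dose of 10 mg per kg. WT;TfRmu/hu mice, termed WT below, carry a transferrin receptor with a human apical domain and were given ATV:ISO or ATV:4D9. AppSAA;TfRmu/hu mice, termed AppSAA, are homozygous for that allele and for an App knock-in with familial Alzheimer's disease mutations and were given ATV:ISO, 4D9 or ATV:4D9. 4D9 is an antibody that binds mouse TREM2, ATV is the Fc-engineered transport vehicle that binds the human part of the transferrin receptor, and ATV:ISO is the isotype control. Every group, controls included, carries the altered transferrin receptor, which the vehicle needs, and no group without it was analysed here. The arm of the control is deposited as ATV-DNP02 and was read as ATV:ISO. The mice were kept on a C57BL/6J background, and their ages are not given in the labels. A pool combined 1 mouse from each group, so the pool numbers 1 to 4 also name the replicates.

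The matrix held 74758 cells, 2193 to 6126 per mouse, and 17150296 to 102446549 UMIs per mouse. Mean total UMIs per cell were 8612 ± 711 (SD, n = 4 mice) in WT given ATV:ISO, 16780 ± 1725 in WT given ATV:4D9, 11520 ± 860 in AppSAA given ATV:ISO, 11926 ± 1656 in AppSAA given 4D9 and 17116 ± 1283 in AppSAA given ATV:4D9. The 7 microglial markers Cx3cr1, Csf1r, Tmem119, Fcrls, Olfml3, C1qa and Sall1 were detected in every group and summed to 16470 to 23244 CPM (counts per 1e+06 UMIs) per mouse, against 9.97 to 32.7 CPM for 6 markers of border macrophages. There were 543 cell barcodes found in more than 1 pool. Of the mice 1, WT given ATV:ISO in pool 4, was recorded as female. It is the mouse named below as WT_ISO replicate 4, so fits without it also leave out the recorded female.

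Because the total UMIs per cell differed between groups, each gene is given on 2 scales. The first, per total UMIs, is the CPM of a mouse after TMM adjustment, in which its total is multiplied by a factor, here from 0.848 to 1.156. It is close to a share of the UMIs captured but not equal to it. The marker sums were not adjusted in this way. The second, per cell, is the mean number of UMIs of the gene in a cell. ATV:4D9 against ATV:ISO came with 1.95 times the total UMIs per cell in WT and 1.49 times in AppSAA, AppSAA against WT under ATV:ISO with 1.34 times, and the total was higher in 4 of 4 pools each time (exact permutation test over mice, two-sided, p = 0.0286, which is the lowest value possible with 4 against 4, adjusted p = 0.0429 over 6 comparisons). A gene whose UMIs per cell rose by less than the adjusted total therefore fell per total UMIs while it rose per cell. Each pool held 1 mouse of every group, so these differences lie within pools and not between them. No part of either difference was assigned to the RNA content of cells or to the efficiency of its capture in single cells. These 2 cannot be told apart here.

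Several of the 8 genes lie in pairs or inside other genes (GRCm38 coordinates). P2ry12 (ENSMUSG00000036353) is on the minus strand of chromosome 3 from 59216272 to 59262871, and P2ry13 (ENSMUSG00000036362) ends 5389 bases away, from 59207892 to 59210882 on the same strand. Both sit within the span of Med12l on the opposite strand, with which P2ry12 shares 9 exon bases. P2rx7 (ENSMUSG00000029468; chromosome 5, 122643911 to 122691432, plus strand) is followed after 16111 bases by P2rx4 (ENSMUSG00000029470; 122707544 to 122729738, plus strand). P2ry6 (ENSMUSG00000048779) is on the minus strand of chromosome 7 from 100937630 to 100974649, Entpd1 (ENSMUSG00000048120) on the plus strand of chromosome 19 from 40612366 to 40741602, and Gpr34 (ENSMUSG00000040229) on the plus strand of chromosome X from 13632089 to 13640858, inside the opposite-strand gene Cask. Adora3 (ENSMUSG00000000562; chromosome 3, 105870858 to 105908926, plus strand) shares 779 exon bases with Tmigd3 on the same strand, and reads there can go to neither or to the other gene. Tmigd3 itself was counted at 0.831 to 2.25 CPM in the 20 mice. Reads that went to neither gene are in no count, so the values of Adora3 are uncertain by an amount that was not measured.

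RefSeq promoter windows (GRCm38.p6) were held for 6 of the 8 genes, and P2ry6 and Gpr34 had none. The 150 bases before the start are printed for the neighbours P2ry12 and P2ry13 and for Adora3, which fell per total UMIs with ATV:4D9 in both genotypes, and for P2rx4, which was not called in AppSAA. Entpd1 and P2rx7 fell in both as well and have 2 RefSeq starts each, which are not printed. The RefSeq starts are those of the annotation above for P2ry13 and P2rx4, while that of P2ry12 lies 114 bases outside its annotated span and that of Adora3 33563 bases inside. Capitals mark GAGGAA on either strand, 1 form of the PU.1/ETS site. Other forms with GGAA were not searched for and stand unmarked in the printed stretches, that of P2ry12 included.
P2ry12, chr3:59262986-59263135 (minus strand): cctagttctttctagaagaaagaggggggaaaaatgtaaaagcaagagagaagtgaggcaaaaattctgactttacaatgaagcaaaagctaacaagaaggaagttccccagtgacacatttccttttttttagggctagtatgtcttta
P2ry13, chr3:59210883-59211032 (minus strand): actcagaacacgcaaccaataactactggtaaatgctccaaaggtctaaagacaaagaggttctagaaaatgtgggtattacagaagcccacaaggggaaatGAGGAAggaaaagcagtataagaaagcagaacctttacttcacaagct
Adora3, chr3:105904271-105904420 (plus strand): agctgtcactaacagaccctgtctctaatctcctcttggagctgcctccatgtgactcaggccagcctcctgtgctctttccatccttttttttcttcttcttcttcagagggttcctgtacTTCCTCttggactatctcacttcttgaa
P2rx4, chr5:122707394-122707543 (plus strand): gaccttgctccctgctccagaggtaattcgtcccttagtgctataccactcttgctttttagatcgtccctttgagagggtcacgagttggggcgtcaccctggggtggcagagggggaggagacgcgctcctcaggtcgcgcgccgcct
GAGGAA was found at -48 to -43 in P2ry13 and at -28 to -23 on the minus strand in Adora3, where -1 is the base before the start. It was also found at -235 to -230 and -227 to -222 before the second start of Entpd1. It was in none of the 250 bases before the starts of P2ry12, P2rx4 and P2rx7, which does not show that they lack an ETS site. Of 32851 windows of 250 bases before a start, 23.3% hold these letters. The palindromic E-box of the MITF and TFE family (CACGTG), present in 6.02% of windows, was found in P2ry12 at -228 to -223, outside the printed stretch. An AP-1 site (TGANTCA, 6.75% of windows) was found in Adora3 at -98 to -92 and in P2rx7 at -249 to -243. The RUNX core (TGTGGT on either strand, 14.05% of windows) was found in P2ry13 at -214 to -209 on the minus strand, and the interferon response element core (2.98% of windows) in no window of a member. These matches describe the letters and not a bound site.

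P2ry12, the ADP receptor of process extension, was the member with the largest fold changes under ATV:4D9. Its level in WT mice given ATV:ISO was 2678, 2634, 2632 and 2499 CPM in pools 1 to 4, and in WT mice given ATV:4D9 it was 958, 1138, 972 and 930 CPM. In AppSAA mice it was 1680, 1512, 1621 and 1805 CPM under ATV:ISO, 1626, 1599, 1568 and 1646 CPM under 4D9 and 543, 887, 673 and 790 CPM under ATV:4D9. The groups given ATV:4D9 did not overlap with any group that was not, and within ATV:ISO the genotypes did not overlap either. P2ry12 fell by 1.38 on the log2 scale per total UMIs with ATV:4D9 in WT (log2 fold change -1.38, SE 0.11, edgeR adjusted p = 1.45e-09) and by 1.19 in AppSAA (SE 0.11, adjusted p = 2.05e-08), in 4 of 4 pools each. Per cell the decrease was smaller, from 25.0 ± 2.47 to 17.1 ± 1.70 UMIs per cell in WT (log2 fold change -0.54, SE 0.16, adjusted p = 0.00403) and from 18.7 ± 3.10 to 11.5 ± 2.47 UMIs per cell in AppSAA (-0.70, SE 0.16, adjusted p = 0.000681). AppSAA against WT under ATV:ISO gave -0.66 per total UMIs (SE 0.11, adjusted p = 0.000113) and -0.42 per cell, which was not called (adjusted p = 0.0571) and was called with the pool as a block (adjusted p = 0.000575), with DESeq2 (adjusted p = 0.0459), with cells of 1000 to 25000 UMIs (adjusted p = 0.0406) and without the pool 4 mouse of AppSAA given ATV:ISO (adjusted p = 0.0327).

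P2ry13, a second ADP receptor, was lower per total UMIs in every group than in WT given ATV:ISO, where its levels were 440, 392, 440 and 484 CPM in pools 1 to 4. Under ATV:4D9 the levels were 278, 320, 319 and 317 CPM in WT and 213, 223, 233 and 246 CPM in AppSAA, and under ATV:ISO in AppSAA 280, 249, 304 and 333 CPM. The log2 fold changes per total UMIs were -0.51 for ATV:4D9 in WT (SE 0.09, adjusted p = 4.32e-05), -0.35 for ATV:4D9 in AppSAA (SE 0.09, adjusted p = 0.00214) and -0.59 for AppSAA under ATV:ISO (SE 0.09, adjusted p = 3.48e-05). Per cell the direction differed between these comparisons. WT mice given ATV:4D9 held 5.33 ± 0.87 UMIs per cell against 4.23 ± 0.81 under ATV:ISO, higher in 4 of 4 pools, which was not called without the pool block (log2 fold change 0.33, adjusted p = 0.116) and was called with it (0.34, adjusted p = 0.00015) or without WT_ISO replicate 4, the pool 4 mouse of WT given ATV:ISO (0.45, adjusted p = 0.0446). For AppSAA against WT under ATV:ISO the per-cell value was -0.35 (adjusted p = 0.2), lower in 4 of 4 pools and called with the block (-0.36, adjusted p = 0.000297).

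P2ry6, the UDP receptor tied to phagocytosis, split by scale. It fell by 0.34 on the log2 scale per total UMIs with ATV:4D9 in WT (SE 0.09, adjusted p = 0.0028) and rose per cell in the same mice, from 2.47 ± 0.19 to 3.50 ± 0.24 UMIs per cell (log2 fold change 0.50, SE 0.10, adjusted p = 0.000121). The single mice were at 2.21, 2.49, 2.47 and 2.69 UMIs per cell under ATV:ISO and at 3.41, 3.31, 3.42 and 3.85 under ATV:4D9, with no overlap. In AppSAA the difference per total UMIs was 0.04 (SE 0.09, adjusted p = 0.732), while the per-cell level went from 2.21 ± 0.15 to 3.23 ± 0.31 (0.55, SE 0.10, adjusted p = 7.21e-05). Both per-cell values for P2ry6 may be set beside the median of all genes tested, 0.79 in WT and 0.47 in AppSAA. The genotype difference under ATV:ISO was -0.39 per total UMIs (SE 0.09, adjusted p = 0.00298) and -0.16 per cell (adjusted p = 0.292).

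**Figure D1:**
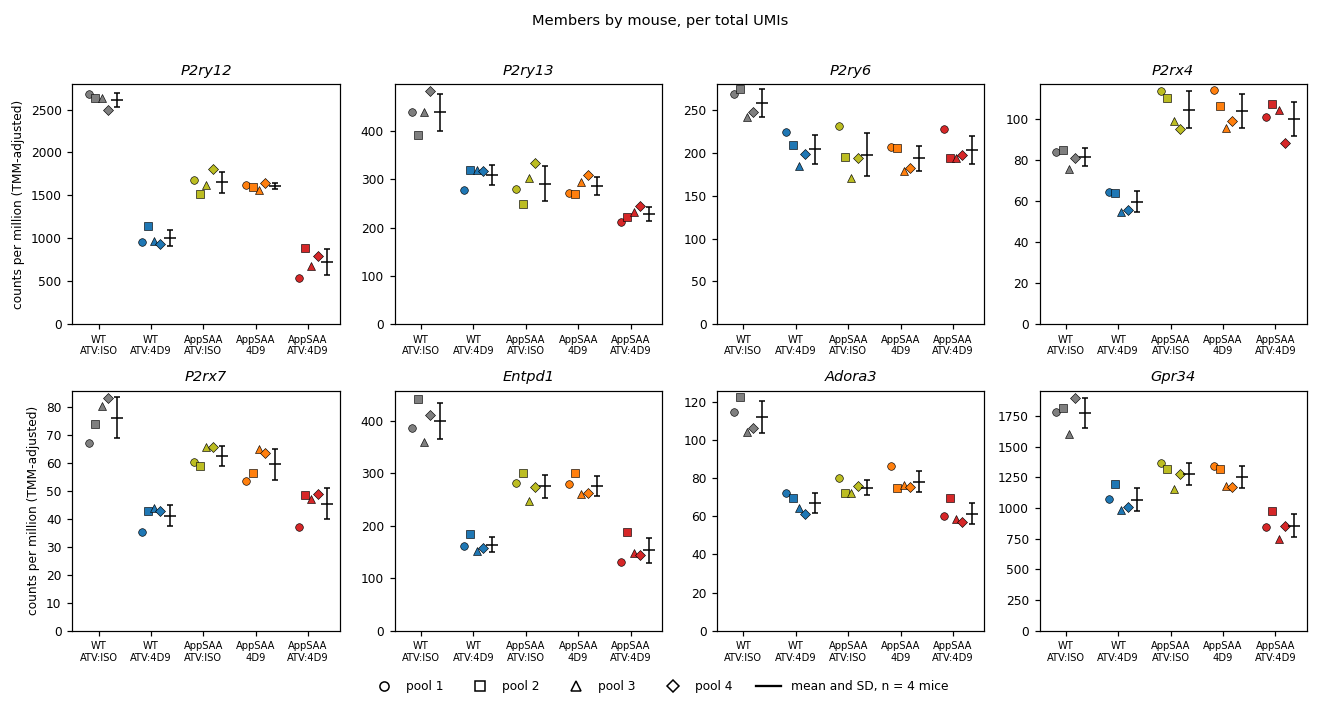
TMM-adjusted CPM (y axis, from 0) of the 8 genes in each of the 20 mice by group (x axis), with a marker shape per pool and the mean and SD of 4 mice beside the points. In every panel but that of P2rx4 the 4 WT mice given ATV:ISO hold the highest group mean, and P2ry12 runs from 2499 to 2678 there and from 543 to 887 in AppSAA given ATV:4D9.

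The ATP-gated channels behaved differently from each other. P2rx4, a channel known to sit largely in lysosomes, was at 84.0, 85.0, 75.5 and 80.8 CPM in WT given ATV:ISO and at 114, 110, 98.7 and 94.8 CPM in AppSAA given ATV:ISO. It was the single member higher in AppSAA, by 0.36 on the log2 scale per total UMIs (SE 0.08, adjusted p = 0.00284) and by 0.59 per cell (0.777 ± 0.076 against 1.168 ± 0.050 UMIs per cell, SE 0.09, adjusted p = 5.71e-05). Under ATV:4D9 in WT it fell by 0.45 per total UMIs (59.6 ± 5.25 CPM, adjusted p = 0.000103) and rose by 0.39 per cell (1.02 ± 0.04 UMIs per cell, adjusted p = 0.00079). Under ATV:4D9 in AppSAA its CPM did not pass the test (log2 fold change -0.06, adjusted p = 0.565), and it rose per cell to 1.54, 1.56, 1.69 and 1.55 in pools 1 to 4 (0.44, adjusted p = 0.000338). The genotypes stood farther apart under ATV:4D9 than under ATV:ISO, a difference tested below as an interaction, and there P2rx4 was 0.75 higher in AppSAA per total UMIs (SE 0.08, adjusted p = 2.81e-06) and 0.64 higher per cell (adjusted p = 0.000153).

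P2rx7, the channel known for inflammasome activation at high ATP, had the fewest UMIs of the 8 and so the least depth. It measured 66.9, 73.7, 80.3 and 83.2 CPM in WT given ATV:ISO against 35.3, 42.6, 43.9 and 42.6 CPM with ATV:4D9, a fall of 0.89 on the log2 scale (SE 0.10, adjusted p = 1.45e-07), and in AppSAA it fell by 0.46 (SE 0.10, adjusted p = 0.000438). Per cell its group means lay between 0.70 and 0.735 UMIs in all 5 groups, with SDs of 0.123 to 0.187, and no comparison of groups was called. The genotype difference under ATV:ISO, -0.28 per total UMIs (SE 0.10, adjusted p = 0.0343), was lost when SAA_ISO replicate 1 or 2 or WT_ISO replicate 2, 3 or 4 was left out (adjusted p = 0.0518 to 0.114), where SAA_ISO and WT_ISO are the AppSAA and WT mice given ATV:ISO. It was also lost with RLE size factors (adjusted p = 0.0532), with no filter on low counts (0.11), with cells of 1000 to 25000 UMIs (0.109) and with cells thinned to 5000 UMIs (0.39).

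Entpd1 encodes CD39, the ectonucleotidase that cuts ATP and ADP to AMP, and it came next to P2ry12 in the size of its decrease. In WT it was at 386, 442, 361 and 411 CPM under ATV:ISO and at 161, 185, 152 and 158 CPM under ATV:4D9. In AppSAA it was at 282, 301, 248 and 274 CPM under ATV:ISO and at 131, 188, 147 and 145 CPM under ATV:4D9, so that neither pair of groups overlapped. The log2 fold changes per total UMIs were -1.28 (SE 0.10, adjusted p = 1.24e-09) and -0.85 (SE 0.10, adjusted p = 6.72e-07). Per cell Entpd1 fell too, from 3.83 ± 0.54 to 2.81 ± 0.26 UMIs in WT (-0.45, SE 0.12, adjusted p = 0.00336) and from 3.10 ± 0.26 to 2.42 ± 0.31 UMIs in AppSAA (-0.35, SE 0.12, adjusted p = 0.0207). The AppSAA call per cell was lost without SAA_ATV4D9 replicate 1 (-0.27, adjusted p = 0.078) and without SAA_ISO replicate 4 (-0.31, adjusted p = 0.0621), where SAA_ATV4D9 stands for AppSAA mice given ATV:4D9. Entpd1 and P2ry12 were the members that fell on both scales with ATV:4D9 in both genotypes.

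Adora3, an adenosine receptor, and Gpr34, a P2Y-like receptor for lysophosphatidylserine, fell per total UMIs and held their level per cell more closely. Adora3 went from 112 ± 8.4 to 66.9 ± 5.1 CPM with ATV:4D9 in WT (log2 fold change -0.74, SE 0.08, adjusted p = 9.66e-08) and from 75.0 ± 3.8 to 61.3 ± 5.6 CPM in AppSAA (-0.29, SE 0.08, adjusted p = 0.00399). Gpr34 went from 1776 ± 124 to 1066 ± 94.1 CPM in WT (-0.74, SE 0.09, adjusted p = 5.57e-07) and from 1277 ± 91.5 to 856 ± 93.4 CPM in AppSAA (-0.58, SE 0.09, adjusted p = 1.87e-05). The per-cell log2 fold changes with ATV:4D9 were 0.10 for both genes in WT (adjusted p = 0.398 and 0.429), and 0.20 for Adora3 (adjusted p = 0.101) and -0.08 for Gpr34 (adjusted p = 0.570) in AppSAA. With the pool block the AppSAA value of Adora3 was called (0.21, adjusted p = 0.00856). Adora3 was also lower in AppSAA than in WT under ATV:ISO on both scales, by -0.58 per total UMIs (adjusted p = 1.27e-05) and -0.34 per cell (adjusted p = 0.0184), and the per-cell call was lost without SAA_ISO replicate 1 or 2 or WT_ISO replicate 2 or 4 (adjusted p = 0.0532 to 0.0695).

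**Figure D2:**
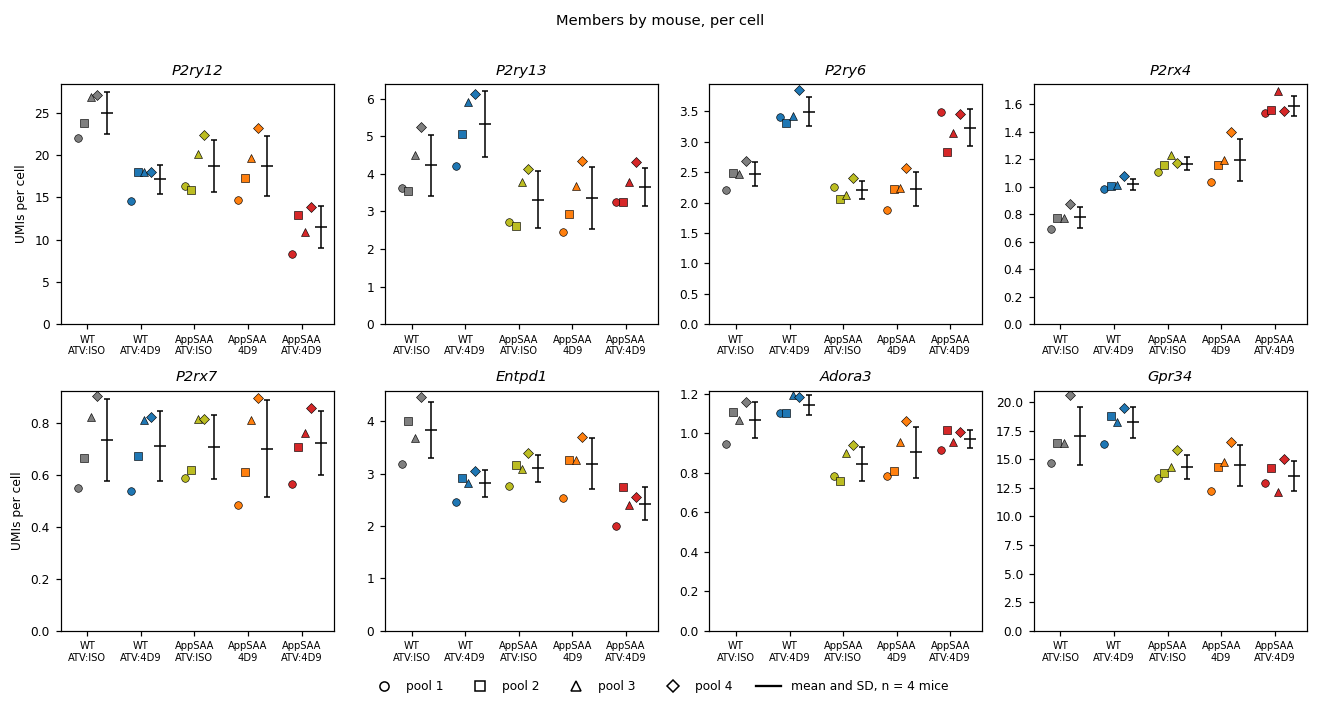
UMIs per cell (y axis, from 0) of the same 8 genes in the same 20 mice, with a marker shape per pool and the mean and SD of 4 mice. P2rx4 stands highest in AppSAA given ATV:4D9, at 1.54 to 1.69 UMIs per cell, P2ry6 is higher in both groups given ATV:4D9, and P2rx7 spreads more by pool than by group.

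Read together for ATV:4D9 against ATV:ISO in WT, 8 of 8 members were lower per total UMIs with no overlap between the groups, where 63.3% of all genes tested were called in either direction, 32.5% lower and 30.8% higher, and 55.6% did not overlap. The median log2 fold change was -0.74 over the members and -0.05 over all genes. Per cell 2 members fell (P2ry12, Entpd1) and 2 rose (P2ry6, P2rx4), where 70.5% of all genes were called, 2.35% lower and 68.2% higher, and these 4 members did not overlap, as 64.1% of genes did not. The median was 0.10 over the members against 0.79 over all genes. For the same comparison in AppSAA, 6 of 8 were lower per total UMIs with no overlap (55.1% of genes called, 27.1% lower and 27.9% higher, 47.6% without overlap), with a median of -0.41 against -0.03 over all genes. Per cell the same 2 fell and the same 2 rose (55.3% of genes called, 3.19% lower and 52.1% higher, 53% without overlap), with medians of 0.08 and 0.47. The 2 comparisons have no mice in common, but they share the 4 pools and 1 fit, so they are not fully independent. The members were chosen with earlier results of these data known, so their counts beside those of all genes are a description.

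AppSAA against WT under ATV:ISO gave 7 members lower and P2rx4 higher per total UMIs, where 28.2% of genes were called, 13.7% of them lower and 14.4% higher as shares of all genes tested. The median was -0.51 over the members and -0.06 over all genes, and the 2 groups did not overlap for any of the 8 members, which held for 27.4% of all genes. Per cell P2rx4 was higher and Adora3 lower, both without overlap (24.4% of genes called, 22.9% higher and 1.49% lower, 27.7% without overlap), and with the pool as a block 6 members were called, P2ry12, P2ry13, Entpd1 and Gpr34 lower as well, where 44.7% of genes were called with that block, 39.2% higher and 5.48% lower. Entpd1 was also called without WT_ISO replicate 1 (-0.39, adjusted p = 0.0376). Under ATV:4D9 the genotypes differed in 4 members per total UMIs, the 4 without overlap (11.8% of genes called, 7.84% higher and 3.98% lower, 14.9% without overlap). P2ry12 was lower in AppSAA by -0.47 (adjusted p = 0.00633), P2ry13 by -0.43 (adjusted p = 0.0020) and Gpr34 by -0.32 (adjusted p = 0.0237), and P2rx4 was higher as given above. The Gpr34 call was lost without SAA_ATV4D9 replicate 3 or WT_ATV4D9 replicate 2 (WT mice given ATV:4D9; adjusted p = 0.110 and 0.0979). Per cell P2ry12 (-0.57, adjusted p = 0.0307), Gpr34 (-0.43, adjusted p = 0.0218) and P2rx4 were called where 5.96% of genes were, 3.53% higher and 2.43% lower. The P2ry12 call was lost without SAA_ATV4D9 replicate 1 or 3 or WT_ATV4D9 replicate 2, 3 or 4 (adjusted p = 0.0784 to 0.109), and that of Gpr34 without SAA_ATV4D9 replicate 3 or WT_ATV4D9 replicate 2, 3 or 4 (adjusted p = 0.0535 to 0.101). Those 3 and Adora3 did not overlap between the groups per cell, which held for 12.9% of genes. With the pool block P2ry13, Entpd1 and Adora3 were also lower per cell (-0.54, -0.22 and -0.23, adjusted p = 8.45e-06, 0.00884 and 0.012), and P2rx7 was higher per total UMIs (0.14, adjusted p = 0.0414). The block called 31% of genes per cell, 8.36% higher and 22.6% lower, and 31.4% per total UMIs, 17% higher and 14.4% lower. P2ry13 was also called lower per cell with cells of 1000 to 25000 UMIs (-0.60, adjusted p = 0.0197).

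Plain 4D9 and ATV:4D9 differ by the transport vehicle in the Fc part and were compared in AppSAA at the same dose and time. Against ATV:ISO, 4D9 gave no call among the 8 members on either scale with edgeR, and 0% of all genes were called. No member was without overlap per total UMIs or per cell, where 0.69% and 0.37% of genes were. At an unadjusted p under 0.05, 0 members and 79 of 14058 genes passed per total UMIs, and 0 members and 48 genes per cell. Both are lower shares of genes than the 0.05 that p-values would give without any difference. The fit may therefore be conservative here, and the counts do not show that 4D9 changed nothing. DESeq2 called 1 gene on each scale, no member, and limma voom and the fit with the pool as a block called none. The intervals of the 8 differences per total UMIs (95%) ran from -0.27 at the lowest (P2rx7) to 0.22 at the highest (Adora3). For P2ry12 the difference was -0.04 (-0.27 to 0.19), and per cell 0.00 (-0.32 to 0.32). ATV:4D9 against 4D9 gave 6 members lower per total UMIs with no overlap (54.3% of genes called, 26.7% lower and 27.6% higher, 46.9% without overlap). P2ry12 stood at -1.15 (SE 0.11, adjusted p = 3.38e-08), Entpd1 at -0.85 (adjusted p = 6.94e-07), Gpr34 at -0.55, P2rx7 at -0.39, Adora3 at -0.35 and P2ry13 at -0.33. P2ry6 (0.07, adjusted p = 0.528) and P2rx4 (-0.05, adjusted p = 0.633) were not called per total UMIs and rose per cell (0.54 and 0.41, adjusted p = 0.000101 and 0.000744), while P2ry12 and Entpd1 fell (-0.70 and -0.40, adjusted p = 0.000717 and 0.0111), where 52.7% of genes were called, 49% higher and 3.74% lower. Per cell P2ry12, P2ry6 and P2rx4 did not overlap and Entpd1 did (45.2% of genes without overlap). This comparison and that with ATV:ISO share the mice given ATV:4D9, so their values are not independent of each other.

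**Figure D3:**
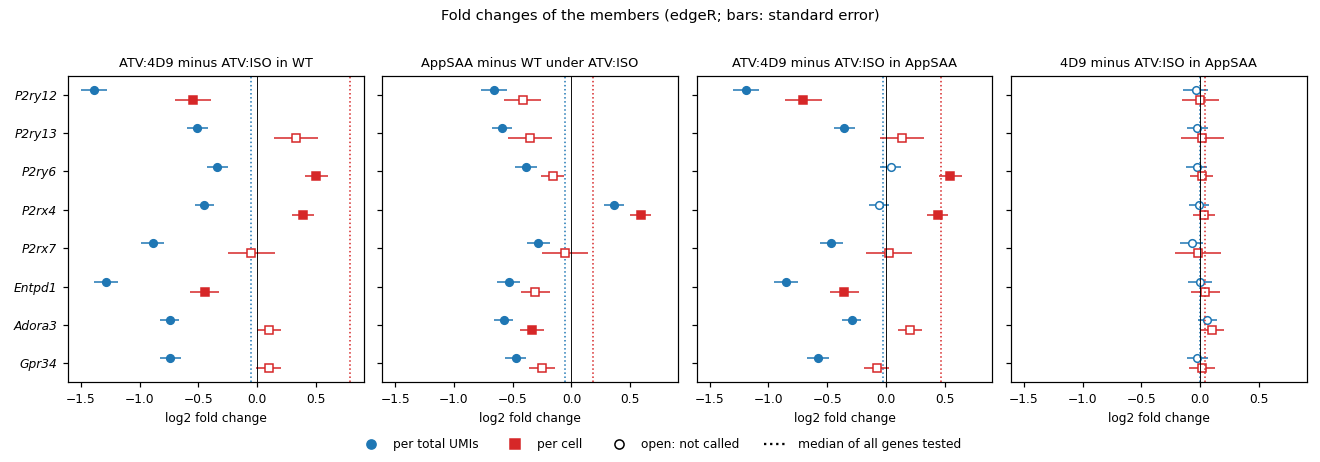
Log2 fold changes (x axis) of the 8 genes (y axis) in 4 comparisons, per total UMIs (circles) and per cell (squares), with the standard error as a bar, filled where edgeR's adjusted p was under 0.05, and with the median of all genes tested as a dotted line in the colour of each scale. With ATV:4D9 in WT the 8 circles lie between -1.38 and -0.34 and the squares between -0.54 and 0.50, and with 4D9 all points lie near 0.

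Whether ATV:4D9 changed the members by a different amount in the 2 genotypes was tested as an interaction, the AppSAA fold change minus the WT fold change. Per total UMIs all 8 values were above 0, that is, toward a smaller decrease in AppSAA, and 2 were called where 9.14% of genes were, 3.79% above 0 and 5.35% below: Adora3 at 0.45 (SE 0.11, adjusted p = 0.0131) and P2rx4 at 0.39 (SE 0.12, adjusted p = 0.0437). With the pool block 5 were called, P2ry6 (0.39, adjusted p = 0.000226), P2rx7 (0.42, adjusted p = 0.000271) and Entpd1 (0.43, adjusted p = 0.000425) in addition, where 30.5% of genes were called with the block, 16.9% above 0. Per cell none of the 8 was called by edgeR, and none had an unadjusted p under 0.05, where 15.9% of genes were called, 0.27% above 0 and 15.6% below. DESeq2, limma voom and the block fit called none either, and the block called 45.7% of genes. The call of P2rx4 was lost in 10 of the 16 fits that left out 1 mouse of these groups (adjusted p = 0.0529 to 0.097), namely SAA_ATV4D9 replicate 2 or 3, SAA_ISO 2, 3 or 4, WT_ATV4D9 3 or 4 and WT_ISO 1, 2 or 4. P2rx7 was called without SAA_ATV4D9 replicate 1 or WT_ISO replicate 1, Entpd1 without SAA_ATV4D9 replicate 1 or WT_ATV4D9 replicate 2, and P2ry6 without SAA_ISO replicate 1. RLE size factors or no filter on low counts ended the P2rx4 call (adjusted p = 0.0742 and 0.114), and thinning the cells to 5000 UMIs ended that of Adora3 (0.26, adjusted p = 0.26). The median interaction over all genes was 0.04 per total UMIs and -0.30 per cell.

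The deposited annotation places each cell in 1 of 6 clusters without names. Cluster 0 held 60.4% of the cells of WT mice given ATV:ISO and cluster 3, where 15 immediate early genes summed to 30169 CPM against 4846 CPM in cluster 0, another 35.8%. Clusters 2 and 4 held 47.8% and 40.0% in WT given ATV:4D9. Cluster 1 held 38.3% in AppSAA given ATV:ISO and 39.4% given 4D9, and cluster 5 held 22.4% in AppSAA given ATV:4D9 and at most 4.21% as the mean of any other group. The clusters were made from the expression of the same cells, so levels by cluster are a description with no test. They also differed in depth, from 7641 total UMIs per cell in cluster 0 to 19644 in cluster 4.

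P2ry12 separated clusters 0 and 3 from the rest per total UMIs. Its mean over the mice with at least 20 cells was 2549 ± 327 CPM in cluster 0 (n = 20) and 2035 ± 363 CPM in cluster 3 (n = 20), against 944 ± 213 in cluster 1 (n = 16), 1010 ± 211 in cluster 2 (n = 20), 826 ± 133 in cluster 4 (n = 16) and 1001 ± 396 in cluster 5 (n = 17). The last 4 overlapped one another. The mice behind these means were in part different, with 1 WT mouse given ATV:4D9 in cluster 1 and 1 WT mouse given ATV:ISO in cluster 5. The means therefore also reflect the mix of groups. Per cell the order was not the same, with 21.8 ± 3.8 UMIs in cluster 0, 21.2 ± 4.8 in cluster 3, 17.0 ± 3.1 in cluster 4, 15.9 ± 3.8 in cluster 2, 13.5 ± 4.4 in cluster 5 and 12.04 ± 4.24 in cluster 1. Set against cluster 0 of the same mouse, P2ry12 was lower per cell in clusters 1, 2, 4 and 5 in every mouse measured, by a mean log2 ratio of -0.88, -0.48, -0.31 and -0.72.

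As a mean over the mice with at least 20 cells, P2rx4 was highest in cluster 1 on both scales. Relative to cluster 0 of the same mouse it was higher in cluster 1 in 16 of 16 mice on both scales, with mean log2 ratios of 0.91 per total UMIs and 1.48 per cell. The levels were 77.3 ± 7.6 CPM in cluster 0 and 152 ± 30 CPM in cluster 1, and 0.658 ± 0.080 against 1.89 ± 0.42 UMIs per cell. Cluster 5 came next with 111 ± 21 CPM, higher than cluster 0 in 16 of 17 mice. Clusters 1 and 5 were not compared within mice, and the mice behind their means were in part different. Cluster 4 was lowest per total UMIs, at 58.0 ± 11.5 CPM, yet stood above cluster 0 per cell in 16 of 16 mice (mean log2 ratio 0.83).

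Among the other members the lowest cluster per cell was cluster 1 for P2ry13 (2.27 ± 0.76 UMIs against 3.84 ± 0.81 in cluster 0) and for Adora3 (0.715 ± 0.174 against 1.00 ± 0.14). P2ry13 was lower than in cluster 0 of the same mouse in 16 of 16 mice there and Adora3 in 15 of 16. Gpr34 was lowest per cell in cluster 5 (11.8 ± 1.9 UMIs, below cluster 0 in 17 of 17 mice) and highest in cluster 4 (17.2 ± 1.7). P2ry6 was above cluster 0 per cell in 20 of 20 mice in cluster 2 and 16 of 16 in cluster 4, by mean log2 ratios of 0.44 and 0.50. The total UMIs per cell rose by more, from 7641 in cluster 0 to 16740 and 19644 over all cells of these clusters. Entpd1 varied least per cell, between mean log2 ratios of -0.20 and 0.12 over the 5 clusters. Total UMIs per cell were 9975 to 19644 in these clusters, so a flat level per cell is a lower share of the total than in cluster 0.

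**Figure D4:**
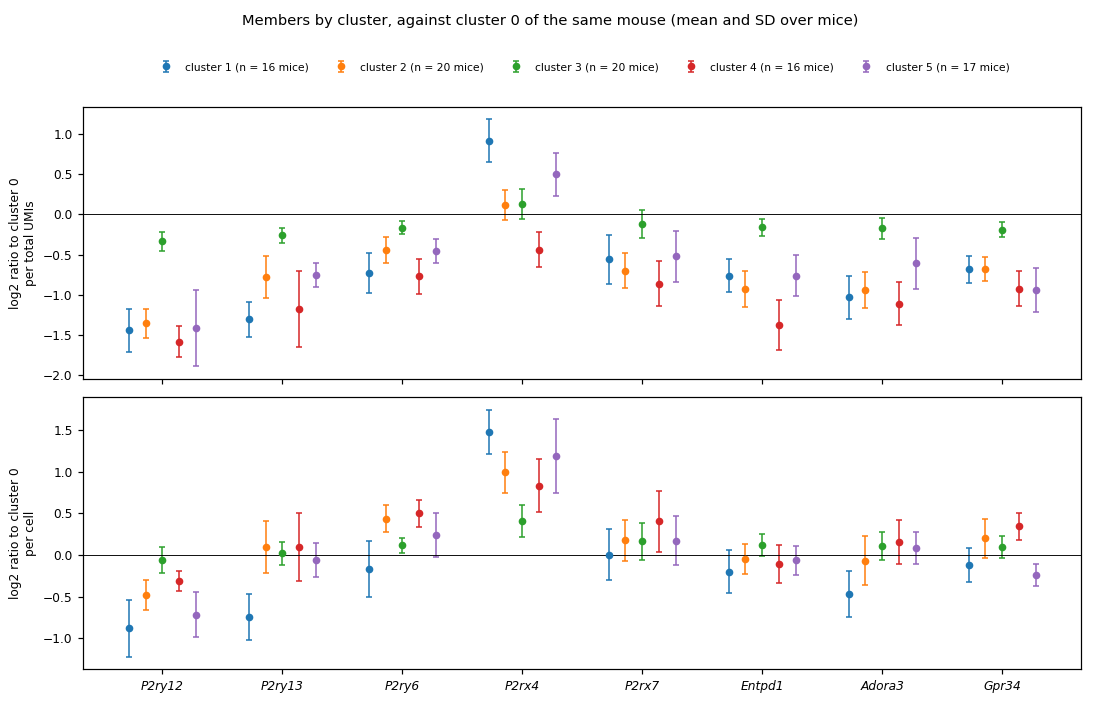
Mean log2 ratio (y axis) of each gene (x axis) in clusters 1 to 5 to cluster 0 of the same mouse, per total UMIs above and per cell below, with the SD over the 16 to 20 mice that had at least 20 cells in both clusters. P2rx4 is the gene above 0 in cluster 1 on both scales (0.91 and 1.48), and P2ry12 is below 0 in clusters 1, 2, 4 and 5 on both.

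Cells were put in clusters by their expression, so the groups compared within a cluster can be differently selected, which the p-values do not cover. In AppSAA cluster 0 held 37 to 195 cells per mouse given ATV:4D9 and 1070 to 1930 given ATV:ISO. Within clusters the groups were compared on counts summed per mouse and cluster, where at least 3 mice of each group had 20 cells. Over 30 such comparisons of 2 groups, 240 tests of a member, 43 were called per total UMIs, which is 17.9% of the tests, where 5.06% of the tests of all genes were called. Without the mice of pool 1, 2, 3 or 4 the count was 32, 28, 15 and 21, where 4.18%, 3.39%, 2.75% and 2.8% of all tests were called. P2ry12 was called lower in 11 of its 30 tests, Entpd1 in 10, P2ry13 and Gpr34 in 5 each, P2rx7 and Adora3 in 2 each and P2ry6 in 1, while P2rx4 was called higher in 4, P2ry13 in 2 and P2ry6 in 1. These tests are not independent of each other, because the comparisons share groups. ATV:4D9 against ATV:ISO and against 4D9 in AppSAA use the same mice given ATV:4D9, so a difference can be counted more than once. No member was called for 4D9 against ATV:ISO in any cluster, with 0% of genes called. Per cell 7 of the 240 were called, 2.92% where 4.27% of all tests were, and 90 per total UMIs (37.5%) with the pool as a block, where 9.67% of all tests were. The mice of a group hold few cells in some clusters, 26 to 74 in cluster 4 for AppSAA given ATV:ISO or 4D9 and 23 to 42 in cluster 2 for WT given ATV:ISO, and with a minimum of 50 cells 26 of the 152 tests that remained were called (17.1%, where 4.21% of all tests were).

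Within cluster 5 P2ry12 and P2rx4 differed with ATV:4D9 on both scales. In AppSAA given ATV:ISO P2ry12 there was at 13.6, 14.5, 19.1 and 17.5 UMIs per cell in pools 1 to 4, and given ATV:4D9 at 6.25, 9.60, 8.47 and 10.4, with no overlap. It fell by 1.27 on the log2 scale per total UMIs (SE 0.12, adjusted p = 1.72e-07) and by 0.90 per cell (adjusted p = 0.000933). P2rx4 rose in the same cells on both scales, from 1.31 ± 0.13 to 2.10 ± 0.08 UMIs per cell (log2 fold change 0.32 per total UMIs, adjusted p = 0.0337, and 0.67 per cell, adjusted p = 0.000976). Entpd1 (-0.74), Gpr34 (-0.73), P2ry13 (-0.41) and Adora3 (-0.38) fell per total UMIs, so that 6 of 8 members were called where 29.7% of the 9869 genes tested were. None of these 4 was called per cell (-0.38, -0.36, -0.04 and -0.03, adjusted p = 0.075, 0.081, 0.905 and 0.916), so that 2 of 8 members were called per cell where 31% of genes were. At a minimum of 50 cells Adora3 was no longer called. The mice given ATV:ISO held 46 to 233 cells in this cluster and those given ATV:4D9 690 to 1071. The sum of the 4 monocyte markers was 30.3 CPM over the cells of cluster 5 and 5.26 to 7.07 CPM in the other clusters, and its part in these values was not tested.

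With ATV:4D9 in WT, P2ry12 was called per total UMIs in cluster 3 (-0.40, adjusted p = 0.00903, 6.17% of genes called) and cluster 2 (-0.47, adjusted p = 0.0425, 5.88% called) and not in cluster 0 (-0.18, adjusted p = 0.319, 1.47% called). Entpd1 was called in all of these 3 clusters, at -0.43 in cluster 0, -0.84 in cluster 2 and -0.53 in cluster 3, and Gpr34 in cluster 3 (-0.33, adjusted p = 0.0297). Cluster 2 could not be tested in WT at a minimum of 50 cells. With the pool block 9 of 24 tests were called in WT against 6 without it, P2ry12 (-0.18, adjusted p = 0.012) and Gpr34 (-0.18, adjusted p = 0.00754) in cluster 0 and P2rx7 in cluster 3 (-0.30, adjusted p = 0.00115) in addition. The block called 8.96%, 11% and 17.5% of genes in clusters 0, 2 and 3. Per cell P2ry12 was called in none of the 3 (adjusted p = 0.822, 0.492 and 0.168 in clusters 0, 2 and 3) and Entpd1 in clusters 2 (-0.61, adjusted p = 0.0146) and 3 (-0.58, adjusted p = 0.0157), where 10.7% and 2.18% of genes were called. In AppSAA P2ry12 fell per total UMIs in clusters 0 (-0.40, 0.667% of genes called), 2 (-0.57, 13.2%) and 3 (-0.56, 4.33%). Entpd1 fell in clusters 2 (-0.51, adjusted p = 0.00212) and 3 (-0.34, adjusted p = 0.0247) and was not called in clusters 0 (-0.18, adjusted p = 0.639) and 1 (-0.04, adjusted p = 0.977). P2ry13 (-0.41, adjusted p = 0.0189) and Gpr34 (-0.36, adjusted p = 0.0245) fell in cluster 3. With a minimum of 50 cells clusters 0 and 4 could not be tested in AppSAA. In cluster 1, which held 38.3% of the cells of AppSAA given ATV:ISO, P2ry12 stood at -0.38 (adjusted p = 0.486). No member was called there, where 1.51% of genes were. With the pool block 4 members were called in cluster 1, P2ry13 lower (-0.37, adjusted p = 0.0121) and P2rx4 (0.37, adjusted p = 0.00199), P2rx7 (0.23, adjusted p = 0.0475) and Adora3 (0.28, adjusted p = 0.0127) higher, where 7.77% of genes were. Over the 6 clusters the block gave 27 calls of 48 in AppSAA against 16 without it. The others it added were P2ry13 (-0.26) and Gpr34 (-0.24) in cluster 0, P2rx7 in clusters 2 (-0.28) and 5 (-0.35), P2ry6 (0.23) and P2rx4 (0.27) in cluster 3 and P2rx4 in cluster 4 (-0.31). In these clusters it called 5.27%, 24.8%, 12.6%, 30.1% and 37.2% of genes, in the order 0, 2, 3, 4 and 5. Per cell no member was called in clusters 0 to 3 in AppSAA, where 0.248%, 0.55%, 12.9% and 1.63% of genes were, and P2ry12 stood at -0.45, -0.57, -0.40 and -0.61 (adjusted p = 0.173, 0.447, 0.204 and 0.0512). Cluster 4 differed, with P2ry13 higher under ATV:4D9 (0.55, adjusted p = 0.00311), P2ry6 higher (0.37, adjusted p = 0.0201) and P2rx7 lower (-0.51, adjusted p = 0.029) per total UMIs, where 24.5% of genes were called. None of these 3 was called per cell, where 16.4% of genes were.

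For AppSAA against WT under ATV:ISO, 2 of 32 tests of a member in clusters 0 to 3 were called per total UMIs without the pool block, P2ry6 in cluster 1 (-0.63, adjusted p = 0.0275, 1.21% of genes called, 3 WT mice) and Entpd1 in cluster 2 (-0.54, adjusted p = 0.0467, 0.281% called). Clusters 1 and 2, with 27 to 62 and 23 to 42 cells per WT mouse, could not be tested at a minimum of 50 cells, where 0 of 16 tests were called. With the pool block 7 of the 32 were called, all lower in AppSAA: Entpd1 in clusters 0 (-0.21), 2 (-0.55) and 3 (-0.20), Gpr34 in cluster 0 (-0.18), P2ry13 in cluster 2 (-0.42) and P2ry6 (-0.56) and P2rx4 (-0.47, adjusted p = 0.0384) in cluster 1. The shares of genes called with the block were 4.61%, 2.68%, 1.33% and 1.64% in clusters 0 to 3. P2rx4, the member higher in AppSAA as a whole, was called higher in none of the 4 clusters in either fit. Its levels in cluster 0 were 0.655 ± 0.075 UMIs per cell in WT and 0.671 ± 0.038 in AppSAA given ATV:ISO. AppSAA mice had 38.3% of their cells in cluster 1, where P2rx4 was highest, and WT mice 1.41%, and the part of these shares in the difference over all cells was not tested. Under ATV:4D9 P2rx4 was higher in AppSAA within cluster 4 (0.38, adjusted p = 0.0256, 2.76% of genes called) and cluster 5 (0.50, adjusted p = 0.00389, 6.87% called) per total UMIs, and per cell in neither (0.46 and 0.27, adjusted p = 0.146 and 0.215). P2ry12 was lower in AppSAA within cluster 4 per total UMIs (-0.48, adjusted p = 0.0288) and not called per cell (-0.40, adjusted p = 0.432). P2ry13 was lower within cluster 5 on both scales (-0.39, adjusted p = 0.0266 per total UMIs, and -0.62, adjusted p = 0.0444 per cell, where 5.5% of genes were called).

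**Figure D5:**
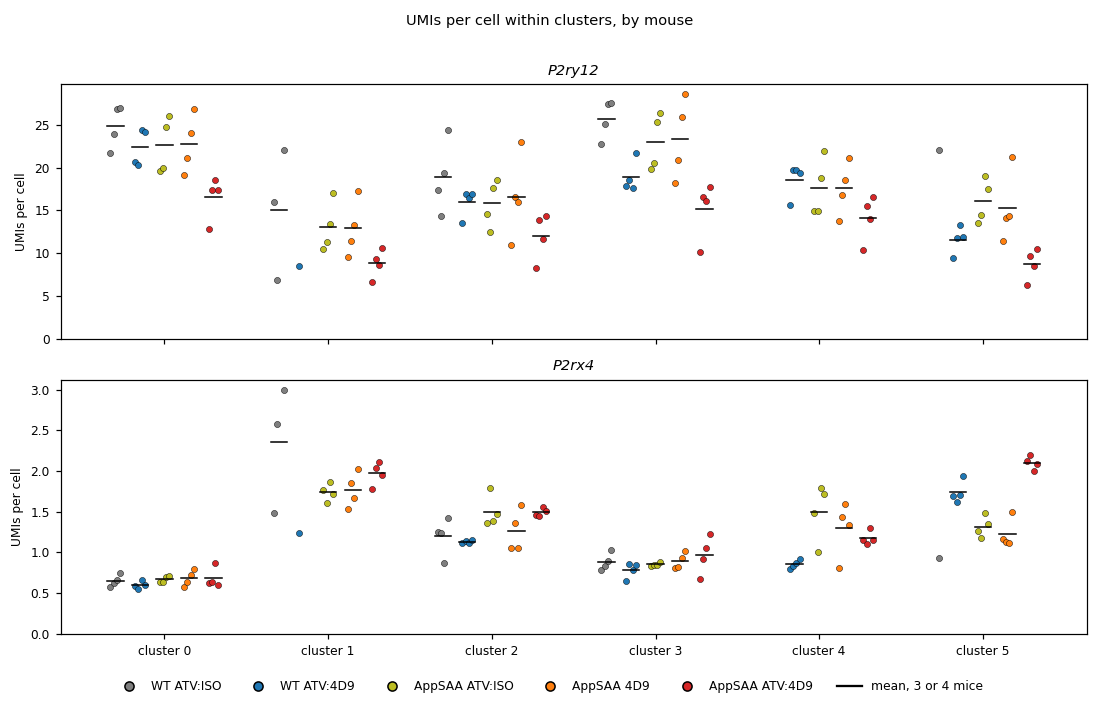
UMIs per cell (y axis, from 0) of P2ry12 and P2rx4 in each mouse with at least 20 cells in a cluster (x axis), coloured by group, with a bar at the mean where 3 or 4 mice were present. P2ry12 has its lowest group mean in AppSAA given ATV:4D9 in clusters 0, 2, 3, 4 and 5, and P2rx4 in cluster 5 lies at 2.00 to 2.20 in AppSAA given ATV:4D9 against 1.173 to 1.48 given ATV:ISO.

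Other measures moved with the groups. The summed level of 15 immediate early genes, known to respond to tissue dissociation, was 15158 CPM as a mean in WT given ATV:ISO and 11086 given ATV:4D9, and 13952 and 10742 in AppSAA. The sum of 10 cell cycle genes was 125 and 1274 CPM in WT and 168 and 951 in AppSAA, in the same order. The sum over 4 monocyte markers was 3.88 to 12.9 CPM per mouse, with the highest group mean, 11.4 CPM, in AppSAA given ATV:4D9. The sum over 7 microglial markers was 22457 and 18792 CPM in WT and 17780 and 17806 in AppSAA, in the same order of ATV:ISO and ATV:4D9. The sum over 3 platelet markers was 42.3 and 25.5 CPM in WT and 22.5 and 17.7 in AppSAA, and that over 4 endothelial markers 22.8 and 11.3 CPM in WT and 43.5 and 19.7 in AppSAA. The sum over 4 B cell markers, among them Cd79b, was 289 and 209 CPM in WT and 250 and 193 in AppSAA without overlap. That over 5 markers of the oligodendrocyte lineage was 33.2 and 20.1 CPM in WT and 37.5 and 25.4 in AppSAA. The part of these measures in the members' differences was not tested.

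The 73 other genes listed are 63 of the purinergic pathway and 10 others, mostly P2Y-like receptors or genes that overlap or neighbour a member. Of these, 51 could be tested, 44 and 7. With ATV:4D9 in WT 15 rose and 22 fell per total UMIs (29.4% and 43.1%, where 30.8% and 32.5% of all genes did; median -0.11), while 34 were higher and 1 lower per cell (66.7% and 1.96%, against 68.2% and 2.35%; median 0.74). In AppSAA 15 rose and 12 fell per total UMIs (29.4% and 23.5%, against 27.9% and 27.1%; median 0.00), while 31 were higher and 1 lower per cell (60.8% and 1.96%, against 52.1% and 3.19%; median 0.50). For AppSAA against WT under ATV:ISO 5 were higher and 19 lower per total UMIs (9.80% and 37.3%, against 14.4% and 13.7%; median -0.19), while 8 were higher and 4 lower per cell (15.7% and 7.84%, against 22.9% and 1.49%; median 0.04). Without the 7 genes outside the pathway, 15 rose and 17 fell of 44 per total UMIs with ATV:4D9 in WT, and 15 and 7 in AppSAA. For AppSAA against WT under ATV:ISO 4 were higher and 14 lower. Per cell the counts were 32 and 0, 30 and 0, and 7 and 3, in the same order. The 3 named by the rule for ATV:4D9 in WT were Ptafr, the platelet-activating factor receptor and one of the P2Y-like receptors, which went from 103 to 29.0 CPM (log2 fold change -1.82, SE 0.12, adjusted p = 9.61e-11), Adk, adenosine kinase, which went from 6.72 to 21.7 CPM (1.69, SE 0.10, adjusted p = 1.81e-11), and Il1b, the cytokine released downstream of P2rx7, which went from 95.0 to 191 CPM (1.01, SE 0.17, adjusted p = 2.67e-05). Ptafr (-0.98) and Adk (1.15) moved the same way in AppSAA. Also named there was Hpgds, the hematopoietic prostaglandin D synthase, at -0.78. It was listed among the 10 others, though it is an enzyme and overlaps no member. For AppSAA against WT under ATV:ISO the rule named Il1b, which was higher (1.23, adjusted p = 1.14e-05), and Cysltr1, a receptor for cysteinyl leukotrienes from the P2Y-like class, and Pnp, purine nucleoside phosphorylase, which were lower (-0.71 and -0.59, adjusted p = 1.74e-06 and 0.000641), all per total UMIs. Under ATV:4D9 it named P2ry10b, lower in AppSAA (-0.55), and Il18 and Casp1, higher in AppSAA (0.40 and 0.34), on the same scale. For ATV:4D9 against 4D9 it named Adk (1.17), Ptafr (-0.94) and Hpgds (-0.76).

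Across the 20 mice the CPM of most members went together. On log2 CPM Pearson's r with P2ry12 was 0.97 for Entpd1, 0.95 for Gpr34, 0.90 for Adora3, 0.89 for P2rx7, 0.81 for P2ry13, 0.44 for P2ry6 and 0.10 for P2rx4. These values describe 5 groups and 4 pools that all genes share, and carry no test. Among 8016 genes with a mean of at least 10 CPM, those most like P2ry12 were Rhobtb1 (r = 0.99), Slc2a5 (0.99) and Rtn4rl1 (0.99), and those most like Entpd1 were Zfp90, Tnrc6c and Slc49a4 (each 0.99). P2rx4 was most like Bri3, Tmem176a and H2-T23 (0.94, 0.94 and 0.93), Gpr34 most like Clec4a2 (0.98) and Adora3 most like Otulinl (0.97). P2ry13 was most like Arvcf (0.98), P2ry6 most like Snx6 (0.94) and P2rx7 most like Brox (0.99).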

How the data were processed

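Brain cells were sorted by the authors for CD11b, tagged with CellPlex oligonucleotides and sequenced in 4 pools with 10x 3' chemistry. The sources differ on whether CD45 was also used and on whether the hippocampus was taken with the cortex. According to the submitters' processing notes and the study's methods, the authors aligned the reads to mm10 with Cell Ranger 6.1.1 and used Seurat version 4 for integration and clustering. The deposited matrix holds UMI counts per gene and cell without normalization, and group, mouse, pool, sex and cluster came from the deposited cell annotation. The deposited other columns, UMI totals and cluster numbers, were used only as labels or checks. Chemistry at the 3' end allows no comparison of levels between genes.

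All 74758 cells were kept, 7141 (9.55%) of them with more than 25000 UMIs and 92 with fewer than 1000 UMIs, and no doublet caller was run. Counts were summed per mouse (n = 4 per group), filtered with filterByExpr and tested with edgeR 4.0.16 (quasi-likelihood, TMM, 1 fit of all 5 groups, group as the only term), with Benjamini-Hochberg adjustment over all genes tested and calls at 0.05. SEs were taken as the log2 fold change divided by the square root of F. Per-cell fits used the number of cells as library size. Sums per mouse and cluster (resolution 0.2) needed at least 20 cells. After group means were subtracted, same-pool mice had a positive correlation in each of 40 pairs (0.143 to 0.607). The pool, which the labels describe as 1 batch, therefore pairs the mice and was an alternative block. The others were RLE size factors, no filter on low counts, DESeq2 1.42.0, limma voom 3.58.1, cells of 1000 to 25000 UMIs, cells thinned to 5000 UMIs (70449 cells held that many), leaving out 1 mouse at a time, clusters at resolution 0.4 and a minimum of 50 cells. Each mouse is a separate animal. No interval from counting error was computed, and errors are the spread between mice.

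The 8 genes, the list of 73 other genes and the marker lists were chosen with earlier results of these data known. Named genes of that list were the 3 with the largest called change at a mean of at least 10 CPM and no overlap between the groups. The likeness list took the 3 highest Pearson correlations on log2 CPM with a prior count of 2. One further marker of the microglial list is not reported here and is in no sum.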

Additional observations from a re-analysis of the deposited data

Results flagged for a closer look

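In groups of 4 mice, 7 of 80 sets of values had a single mouse far from the other 3 by Dixon's test. Chance gives about 1 in 20 for a single set, and 6 of the 7 were mice of pool 1. The sets reuse the same 20 mice on 2 scales, and most members go together, so the sets are not independent. P2ry13 in WT given ATV:4D9 was at 278 CPM in pool 1, with the others at 317 to 320 CPM. P2ry6 in AppSAA given ATV:4D9 was at 228 CPM in pool 1, with the others at 194 to 197 CPM. P2rx7 was at 35.3 CPM in the pool 1 mouse of WT given ATV:4D9 (others 42.6 to 43.9) and at 37.0 CPM in that of AppSAA given ATV:4D9 (others 46.9 to 48.9). Adora3 in AppSAA given 4D9 was at 86.6 CPM in pool 1 (others 74.6 to 76.3). P2ry12 per cell in WT given ATV:4D9 was at 14.6 UMIs in pool 1 (others 18.0), and P2rx4 per cell in AppSAA given ATV:4D9 was at 1.69 UMIs in pool 3 (others 1.54 to 1.56).

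The effect of ATV:4D9 per total UMIs differed between the genotypes, by the interaction test in edgeR, for P2rx4 (0.39, adjusted p = 0.0437) and Adora3 (0.45, adjusted p = 0.0131), and neither was called per cell. The call of P2rx4 was lost in 10 of the 16 fits that left out 1 mouse, with RLE size factors and with no filter on low counts, and that of Adora3 with cells thinned to 5000 UMIs. Adora3 was lower with ATV:4D9 in 4 of 4 pools in both genotypes, and P2rx4 in 4 of 4 pools in WT and 3 of 4 in AppSAA.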

How the results depend on the processing

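No called value of the 8 genes changed sign in any alternative run on the same scale, and the cause of the changes below was not tested. The pool block raised the members called from 2 to 5 for the interaction per total UMIs, from 2 to 6 and from 3 to 6 per cell for AppSAA against WT under ATV:ISO and under ATV:4D9, and from 43 to 90 within clusters. The shares of all genes rose with it, from 9.14% to 30.5%, 24.4% to 44.7%, 5.96% to 31% and 5.06% to 9.67%. It changed no other count of members called over all cells by over 1.5 times. Counts within single comparisons in clusters and counts over all genes did move by more, as given above and below. For the interaction per total UMIs, 1 member was called with RLE size factors, with no filter on low counts and with cells thinned to 5000 UMIs. With cells of 1000 to 25000 UMIs, 5 members differed per cell between genotypes under ATV:ISO. Within clusters 26 tests were called with at least 50 cells and 7 per cell, and 32, 28, 15 and 21 without pool 1, 2, 3 or 4.

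With 1 mouse left out, members called per total UMIs stayed at 8 for ATV:4D9 in WT and at 6 for ATV:4D9 against either control in AppSAA, and ran from 7 to 8 for the genotype under ATV:ISO, 3 to 4 under ATV:4D9 and 1 to 4 for the interaction. Per cell they ran from 4 to 5 for ATV:4D9 in WT, 3 to 4 in AppSAA, 1 to 3 for the genotype under ATV:ISO and 1 to 3 under ATV:4D9.

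Differences in total UMIs per cell ran from 7499 to 8783 for ATV:4D9 in WT, 5221 to 6202 in AppSAA, 4555 to 5871 against 4D9 and 2643 to 3283 for the genotype under ATV:ISO when 1 mouse was left out. Exact permutation of 3 against 4 mice cannot go below p = 0.0571, and exact sign flips within pools, as the block (8167, 5596, 5190 and 2907 UMIs), cannot go below 0.125, so neither says anything about stability. Over all genes, the block gave 7166 calls against 3960 for the genotype under ATV:ISO per total UMIs (2028 with thinned cells) and 6279 against 3431 per cell. Under ATV:4D9 it gave 4409 against 1661 per total UMIs and 4355 against 838 per cell, where DESeq2 gave 1303, cells of 1000 to 25000 UMIs gave 2714 and leaving out SAA_ATV4D9 replicate 3, WT_ATV4D9 replicate 2 or WT_ATV4D9 replicate 3 gave 419, 542 and 557 (1103 per total UMIs without SAA_ATV4D9 replicate 3). For the interaction it gave 4284 against 1285 per total UMIs (518 with thinned cells) and 6418 against 2234 per cell, where cells of 1000 to 25000 UMIs gave 3434. The share of calls that were higher moved from 51.2% to 65.5% without the filter, 68.0% with thinned cells and 42.2% with the block for the genotype under ATV:ISO per total UMIs, from 66.3% to 54.2% with the block under ATV:4D9 and from 41.5% to 26.8% without the filter and 55.5% with the block for the interaction. Per cell under ATV:4D9 it moved from 59.2% to 48.2% with DESeq2, 27.0% with the block and 25.9% with cells of 1000 to 25000 UMIs. P2rx7, at under 1 UMI per cell, had the least depth.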
